A study of Mus musculus with 40 samples.

Results

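The genes described here are Mycn and the network of proteins around MYC, MAX and MLX, in a mouse plasmacytoma line made to express PAX5 constructs. The 10 genes named were Mycn, Myc, Mycl, Max, Mxd1, Mxd3, Mxd4, Mxi1, Mnt and Mlx, and every probe set whose annotated gene symbol is exactly one of these names was taken. That gave 23 of the 45037 probe sets fitted, for 9 of the 10 genes, since no probe set in the annotation used here names Max. Mycn has 3 probe sets, Myc 1, Mycl 3, Mxd1 3, Mxd3 3, Mxd4 4, Mxi1 2, Mnt 2 and Mlx 2. Mycn was chosen by its measured signal on these same arrays, which was known to be lower with PAX5 constructs than with the vector, so its differences between constructs are given with a standard error (SE) and without a p-value. The other members were added as its protein family.

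MYC, MYCN and MYCL are basic helix-loop-helix leucine zipper transcription factors that bind DNA as heterodimers with MAX, prefer the E-box letters CACGTG, and raise genes of growth and ribosome production. The MXD proteins, MXI1 and MNT compete for MAX and bring co-repressors to the same letters, while MLX pairs with the glucose-sensing factors MondoA and ChREBP and with some MXD proteins and MNT. In lymphoid cells Myc drives proliferation and plasmacytomas usually carry a rearranged Myc locus, whereas Mycn is best known from early progenitors and from neuroblastoma.

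The cells were J558LuM, a mouse plasmacytoma line, which stands for 1 line of 1 malignant plasma cell type. They were transduced with MIR (the vector control, with 7 arrays), PAX5-WT (7), PAX5-G183S (7), PAX5-G183V (7), PAX5-P80R (6) or PAX5-Δ2-6 (6), so all 6 groups share the cell line and a transduction, and the cells received no further treatment. PAX5 is the transcription factor that sets B cell identity and that plasma cells switch off. The P80R change lies in the paired domain, with which PAX5 contacts DNA. G183S and G183V alter the octapeptide, where co-repressors dock. For PAX5-Δ2-6 the labels give nothing beyond the name. The comparisons ask how far each altered construct acts as wild-type PAX5 does.

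Total RNA was measured on 40 Affymetrix arrays as log2 signal, 1 value per probe set and array. Array medians lay between 4.21 and 4.27, and precision is set by how many arrays each group has. Each array is a transduction of its own, so the p-values speak of variation among transductions in a single cell line. The labels name 2 plates, 2 RNA isolation batches and a number for each transduction. All PAX5-P80R and PAX5-Δ2-6 arrays were on plate 2. MIR, PAX5-WT and PAX5-G183S arrays had transductions 34 to 44 in isolation batch 1 and 58 to 66 in isolation batch 2, with the exception of PAX5-G183S replicate 4, which had number 45. PAX5-G183V, PAX5-P80R and PAX5-Δ2-6 had numbers 1 to 9 and 46 to 57, so comparing them with the first 3 groups also compares runs of transductions. Comparisons among MIR, PAX5-WT and PAX5-G183S, apart from that 1 array, and comparisons among PAX5-G183V, PAX5-P80R and PAX5-Δ2-6 stay within a run. The labels name no such run. The word stands here for these 2 sets of transduction numbers, each in separate ranges. Plasma cell markers were at their labelled state, with mean levels of 13.2 for Xbp1, 12.4 for Jchain and 10.9 for Irf4, while the B cell genes Cd79a (4.26) and Ebf1 (3.62) lay near or below the array medians and the B cell adaptor Blnk was at 12.2. Myeloid, fibroblast and erythroid markers lay between 3.26 and 5.28. The T cell gene Cd3g stood at 8.29 with Cd3e at 3.99, and no T cell, myeloid, fibroblast or erythroid marker was called in any comparison with MIR. Of 5 measured B cell genes, the Pax5 probe set was called higher with PAX5-P80R (0.61). The constructs themselves carry PAX5, and whether this probe set detects their RNA was not tested. Of 5 measured plasma cell genes, Xbp1 was called lower with PAX5-WT, PAX5-G183S and PAX5-G183V, and Jchain with PAX5-G183V (-0.63). "Called" means an adjusted p under 0.05 in limma, after Benjamini-Hochberg adjustment over all 45037 probe sets, in a fit with terms for group, plate and isolation batch.

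Mycn, at chr12:12936093-12941836 on GRCm38.p6, was bright on a single probe set, on which it was lower with 4 of the 5 PAX5 constructs. Its bright probe set, 1425923_PM_at, averaged 12.57 over all arrays, where the highest value of any probe set was 14.18. The 250 bases upstream of its annotated start, from RefSeq on GRCm38.p6 (chr12:12941837-12942086, minus strand), are shown because they belong to the gene whose level varies most here. Capitals mark the letters TTTGGCGC, a form of the E2F motif, which occur in 2 copies, the nearer one 168 bases before the start:
Mycn: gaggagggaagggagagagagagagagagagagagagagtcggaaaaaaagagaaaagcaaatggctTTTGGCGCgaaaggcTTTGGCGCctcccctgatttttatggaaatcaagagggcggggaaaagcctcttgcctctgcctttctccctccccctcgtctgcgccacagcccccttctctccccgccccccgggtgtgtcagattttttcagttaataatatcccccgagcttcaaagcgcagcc
Of 32851 such windows of all annotated genes, 0.417% hold these 8 letters on either strand. The window of Mycn holds no CACGTG. These matches are descriptions of letters and not of binding.

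With the vector alone, the 7 MIR arrays ranged from 13.58 to 13.81, with a median of 13.75 and a mean of 13.72 ± 0.08 (SD, n = 7). PAX5-Δ2-6 arrays lay at the same height, from 13.72 to 13.91 with a median of 13.78 and a mean of 13.79 ± 0.07 (SD, n = 6). These 2 groups overlapped, and their spread between arrays was the narrowest of the 6 groups.

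Wild-type PAX5 arrays ranged from 11.20 to 12.15, with a median of 11.68 and a mean of 11.71 ± 0.39 (SD, n = 7). PAX5-G183S arrays covered nearly the same span, 11.10 to 11.91, with a median of 11.66 and a mean of 11.49 ± 0.34 (SD, n = 7). Every array of both groups lay more than 1 log2 unit below every MIR array. PAX5-G183V arrays lay from 12.0045 to 12.45, with a median of 12.32 and a mean of 12.24 ± 0.20 (SD, n = 7). PAX5-P80R arrays lay from 12.33 to 12.99, with a median of 12.61 and a mean of 12.63 ± 0.31 (SD, n = 6). Both group means therefore stood between those of wild-type PAX5 and MIR. No array of either lay inside the MIR range, but the PAX5-G183V range overlapped that of wild-type PAX5.

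**Figure D1:**
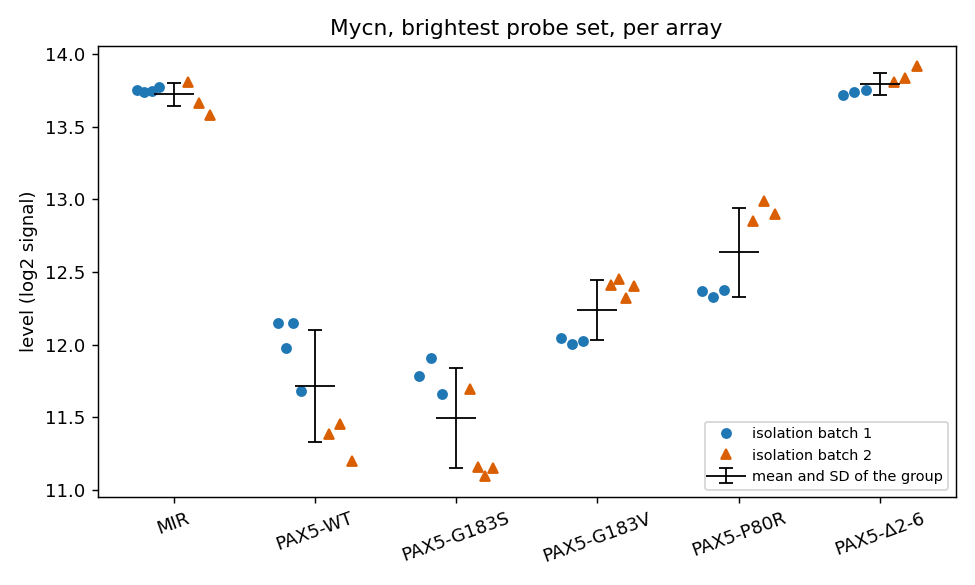
Log2 signal of the bright Mycn probe set on each of the 40 arrays (vertical axis) by construct (horizontal axis); circles are isolation batch 1, triangles isolation batch 2, and the bars give the group mean and SD. MIR and PAX5-Δ2-6 arrays sit between 13.58 and 13.91, and all arrays of the other 4 constructs lie at or below 12.99.

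In falling order the group means were PAX5-Δ2-6, MIR, PAX5-P80R, PAX5-G183V, PAX5-WT and PAX5-G183S. Of the 5 pairs of neighbours in this order only MIR and PAX5-P80R had no overlapping arrays. Fitted differences from MIR were -2.01 ± 0.14 (SE) for PAX5-WT, which is a 4.02-fold lower signal, and -2.22 ± 0.14 for PAX5-G183S. For PAX5-G183V the difference was -1.48 ± 0.14 and for PAX5-P80R -1.02 ± 0.15, while PAX5-Δ2-6 differed by 0.13 ± 0.15. These 3 comparisons cross runs of transductions. With 3 series of transduction numbers in place of the isolation batch they were -1.09 ± 0.10, -0.59 ± 0.11 and 0.56 ± 0.11. The last series, which alone holds all groups, joins both runs, so these values still cross runs. Within isolation batches 1 and 2 PAX5-Δ2-6 differed from MIR by 0.05 and 0.26. A lower level in a bulk sample cannot tell fewer cells with the transcript from less RNA per cell. The fraction of cells that took up a construct was not measured on the arrays.

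Against PAX5-WT, the fitted Mycn difference was -0.21 ± 0.14 (SE) for PAX5-G183S, 0.53 ± 0.14 for PAX5-G183V, 0.98 ± 0.15 for PAX5-P80R and 2.14 ± 0.15 for PAX5-Δ2-6. All 6 PAX5-P80R and all 6 PAX5-Δ2-6 arrays lay above all 7 PAX5-WT arrays, whereas the PAX5-G183V and PAX5-WT ranges overlapped. Within the run of transductions that PAX5-G183V, PAX5-P80R and PAX5-Δ2-6 share, the difference from PAX5-Δ2-6 was -1.16 ± 0.15 for PAX5-P80R and -1.61 ± 0.15 for PAX5-G183V, again with no overlap. PAX5-G183V differed from PAX5-P80R by -0.45 ± 0.15, with overlapping ranges. Non-overlap is not rare on these arrays, since it held for 1.5% of all probe sets between PAX5-WT and MIR, 1.37% for PAX5-G183S, 1.81% for PAX5-G183V and 1.53% for PAX5-P80R against MIR. The same share was 1.64% for PAX5-P80R and 2.16% for PAX5-Δ2-6 against PAX5-WT, and 1.41% for PAX5-P80R and 1.99% for PAX5-G183V against PAX5-Δ2-6. The choice of Mycn used these contrasts, so nothing is read from its place among them.

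Mycn split by isolation batch inside the construct groups, which the choice of the gene did not use. The 4 PAX5-WT arrays of isolation batch 1 averaged 11.99 (11.68 to 12.15) and the 3 of isolation batch 2 averaged 11.35 (11.20 to 11.45). PAX5-G183S moved the same way, from 11.79 (11.66 to 11.91) to 11.28 (11.10 to 11.69). Its highest isolation batch 2 array, at 11.69, was replicate 4, the one with transduction 45, and the other 3 lay at 11.10 to 11.16. The reverse order was seen in the constructs of the other run: PAX5-G183V averaged 12.03 (at most 12.05) in batch 1 and 12.40 (12.32 to 12.45) in batch 2, and PAX5-P80R 12.36 (12.33 to 12.37) and 12.91 (12.85 to 12.99). MIR stayed at 13.75 (13.74 to 13.77) and 13.68 (13.58 to 13.81), and PAX5-Δ2-6 at 13.74 (13.72 to 13.75) and 13.85 (13.81 to 13.91). The 2 batches did not overlap in 4 of the 6 groups, with only 3 or 4 arrays per batch in each group. How often this held for all probe sets was not counted.

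Measured from the MIR arrays of the same batch, the PAX5-P80R difference was -1.33 ± 0.10 (SE) in batch 1 and -0.68 ± 0.10 in batch 2. The batch-by-construct term was 0.65 ± 0.14, with a limma adjusted p of 0.0225, where 0.309% of all probe sets were called for this term. That call was lost when any one of MIR replicates 3, 4, 6 or 7 or PAX5-P80R replicates 2 or 5 was left out, with an adjusted p of up to 0.0781 and a term between 0.61 and 0.69 over all 40 arrays left out. For PAX5-WT the difference from MIR went from -1.76 ± 0.09 to -2.33 ± 0.10, a term of -0.57 ± 0.13 that was not called (adjusted p = 0.373; 0.00666% called). For PAX5-G183V it went from -1.75 ± 0.09 to -1.26 ± 0.09, a term of 0.49 ± 0.13 (adjusted p = 0.103; 0.415% called). Leaving out PAX5-G183S replicate 4 brought both of these terms under the threshold, with adjusted p = 0.0312 for PAX5-WT and 0.0209 for PAX5-G183V, at -0.57 and 0.48. The terms for PAX5-G183S, -0.39 ± 0.13 (adjusted p = 1.00; 0% called), and PAX5-Δ2-6, 0.21 ± 0.14 (adjusted p = 0.753; 0.0622% called), were not called. Isolation batch and transduction numbers change together in every group, except for PAX5-G183S replicate 4. With only 1 such array, the 2 cannot be told apart.

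**Figure D2:**
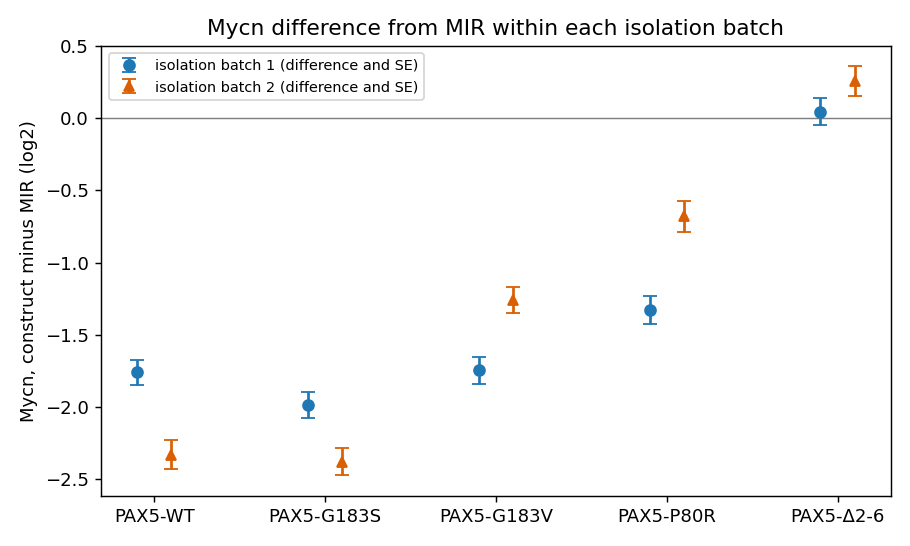
Difference of the bright Mycn probe set from MIR (vertical axis, log2) within isolation batch 1 (circles) and isolation batch 2 (triangles) for each construct (horizontal axis), with the SE of the fit as bars. PAX5-WT and PAX5-G183S lie lower in batch 2, while PAX5-G183V and PAX5-P80R lie higher.

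The distance of PAX5-G183V from wild-type PAX5 rests on this split. Within isolation batch 1 the Mycn levels of the 2 constructs differed by 0.02 ± 0.09 (SE), and within isolation batch 2 by 1.08 ± 0.10. For PAX5-P80R against PAX5-WT the same 2 values were 0.41 and 1.69, and for PAX5-Δ2-6 against PAX5-WT 1.78 and 2.63. The order of PAX5-Δ2-6 above PAX5-P80R above PAX5-WT held in both batches.

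Every Mycn result here rests on the bright probe set, and why the other 2 were dim was not tested. Their means over all arrays were 3.94 (3.46 to 4.19) and 3.50 (3.18 to 3.84), below the array median on 40 of 40 arrays. The 3 measured genes on either side of Mycn on chromosome 12 were 4921511I17Rik, Cyria, 4930511A02Rik, Ddx1, Nbas and Lratd1. None of the 6 was called against MIR for any construct. Ddx1, an RNA helicase gene directly beside Mycn, was bright at 11.30 in MIR and differed by 0.03 ± 0.04 (SE) with PAX5-WT, -0.03 ± 0.04 with PAX5-G183S and 0.06 ± 0.04 with PAX5-P80R.

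Among the 20 probe sets of the remaining 8 genes, 0 to 3 were called in each of the 12 comparisons. Against MIR, limma called 0 of 20 for PAX5-WT, where 3.86% of all probe sets were called; 4 of the 20, and 6175 of all 45037, had an unadjusted p under 0.05. For PAX5-G183S it called 2 higher and 1 lower (3.73% of all probe sets called, with 2.25% higher and 1.48% lower). For PAX5-G183V 1 was lower (5.73%, with 2.43% lower), and for PAX5-P80R 2 were higher (2.56%, with 1.23% higher). PAX5-Δ2-6 had 0 of 20 called, with 0 at an unadjusted p under 0.05, and 0% of all probe sets called, of which 3180 had an unadjusted p under 0.05. The medians of the 20 differences from MIR lay between -0.07 and 0.01, beside medians over all probe sets of 0.00 in size in each of these 5 comparisons.

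Against PAX5-WT the counts were 0 for PAX5-G183S (0.0333% of all probe sets called; 0 of the 20 and 2360 of all at an unadjusted p under 0.05) and 0 for PAX5-G183V (0.0289%; 4 of the 20 and 4514 of all at an unadjusted p under 0.05). PAX5-P80R had 2 higher (4.09%, with 1.73% higher), and PAX5-Δ2-6 had 1 lower (4.27%, with 2.58% lower). Within one run of transductions, PAX5-P80R had 2 higher than PAX5-Δ2-6 (1.78%, with 1.1% higher). PAX5-G183V had 1 lower than PAX5-Δ2-6 (3.08%, with 1.02% lower) and 3 lower than PAX5-P80R (2.72%, with 1.13% lower). Of the 15 calls, 11 belong to Mlx. These comparisons share arrays, so the counts are not independent of each other.

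**Figure D3:**
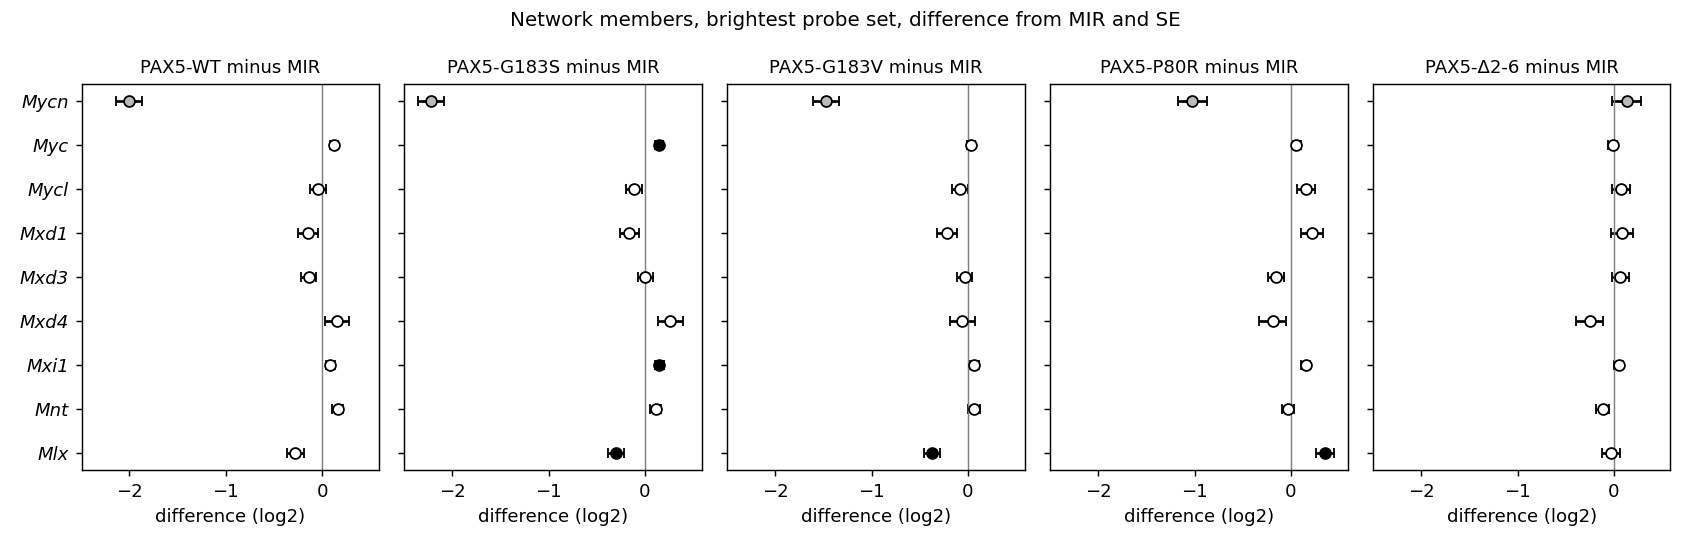
Difference from MIR (horizontal axis, log2) of the brightest probe set of each of the 9 measured members, one panel per construct, with the SE as bars; black points are called, white points are not called and the grey Mycn point was not tested. Mycn reaches -2.22, and the other 8 genes stay between -0.37 and 0.35.

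Myc, the founding member of the family (chr15:61985341-61990361, GRCm38.p6), was bright in all groups and stayed close to its vector level while Mycn fell. Its single probe set ranged from 11.63 to 11.96 in MIR, with a median of 11.69 and a mean of 11.77 ± 0.15 (SD, n = 7). With PAX5-WT it ranged from 11.63 to 12.16 with a median of 11.81, mean 11.90 ± 0.22 (SD, n = 7). With PAX5-G183S the range was 11.69 to 12.16 and the median 12.04, mean 11.96 ± 0.18 (SD, n = 7). All of these ranges overlap. PAX5-G183V averaged 11.85 ± 0.09 (SD, n = 7), PAX5-P80R 11.86 ± 0.19 (SD, n = 6) and PAX5-Δ2-6 11.79 ± 0.17 (SD, n = 6).

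In the fit, Myc was 0.15 ± 0.04 (SE) higher with PAX5-G183S than with MIR (limma adjusted p = 0.0312), by 0.13 and 0.17 in isolation batches 1 and 2. The call was lost without any one of MIR replicates 1, 2, 6 or 7 or PAX5-G183S replicates 2, 3, 5 or 7, with an adjusted p of up to 0.0773, and with no batch terms (adjusted p = 0.332). For PAX5-WT the difference was 0.12 ± 0.04 (adjusted p = 0.0894), and it was 0.03 for PAX5-G183V, 0.05 for PAX5-P80R and -0.01 for PAX5-Δ2-6. The plasma cell marker Xbp1 fell by 0.16 with PAX5-G183S, by 0.14 with PAX5-WT and by 0.15 with PAX5-G183V; its part in any result was not tested.

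Myc differed more between the isolation batches than between any construct and MIR. Batch 2 was 0.29 ± 0.02 (SE) above batch 1 over all constructs (20 arrays each; limma adjusted p = 1.57e-11), a term tested after these values were seen, for which 15.2% of all probe sets were called. The 2 batches did not overlap in 6 of 6 groups: MIR went from 11.66 to 11.93, PAX5-WT from 11.73 to 12.12, PAX5-G183S from 11.78 to 12.10, PAX5-G183V from 11.76 to 11.91, PAX5-P80R from 11.69 to 12.02 and PAX5-Δ2-6 from 11.64 to 11.95. Mycn had no such common shift, at -0.05 ± 0.08. The share of all probe sets whose batches did not overlap in every group was not counted.

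**Figure D4:**
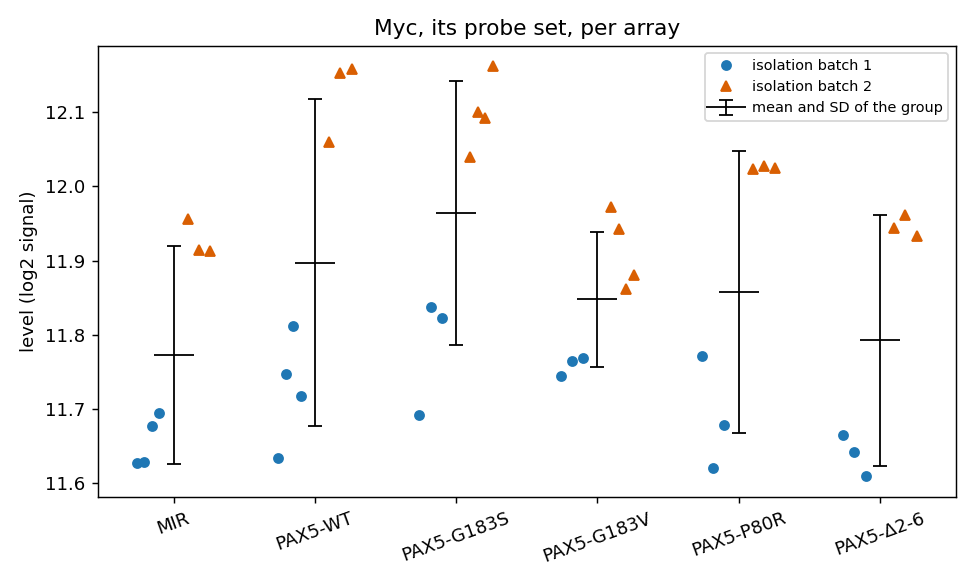
Log2 signal of the Myc probe set on each array (vertical axis) by construct (horizontal axis); circles are isolation batch 1, triangles isolation batch 2, and the bars give the group mean and SD. In every group the triangles lie above all circles, and the group means stay between 11.77 and 11.96.

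Mycl, the third MYC gene, was dim. Its 3 probe sets averaged 3.78, 3.71 and 3.29, below the array median on 40 of 40 arrays, and none was called in any of the 12 comparisons. Max, the shared partner of all MYC and MXD proteins, was not analysed here, as no probe set names it.

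Mlx (chr11:101086707-101092207, GRCm38.p6), the partner of MondoA and ChREBP, was the member other than Mycn with the most calls, and its mean was highest with PAX5-P80R, whose arrays overlapped those of MIR on both of its probe sets. On its brighter probe set, 1425930_PM_a_at, PAX5-P80R arrays ranged from 7.47 to 8.17, with a median of 7.84 and a mean of 7.83 ± 0.26 (SD, n = 6). MIR ranged from 7.16 to 7.69 (median 7.46, mean 7.45 ± 0.18, SD, n = 7) and PAX5-Δ2-6 from 7.35 to 7.60 (median 7.44, mean 7.45 ± 0.10, SD, n = 6). PAX5-WT ranged from 6.94 to 7.46 (median 7.08, mean 7.17 ± 0.19, SD, n = 7), PAX5-G183S from 6.97 to 7.38 (median 7.16, mean 7.17 ± 0.14, SD, n = 7) and PAX5-G183V from 6.84 to 7.29 (median 7.10, mean 7.10 ± 0.16, SD, n = 7). So PAX5-P80R was highest, MIR and PAX5-Δ2-6 overlapped in the middle, and the other 3 constructs shared a lower range.

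The dimmer probe set, 1418437_PM_a_at, gave the same order for PAX5-P80R. Its values were 6.95 to 7.55 in PAX5-P80R (median 7.33, mean 7.28 ± 0.23, SD, n = 6), 6.75 to 7.01 in MIR (mean 6.88 ± 0.10, SD, n = 7) and 6.69 to 6.95 in PAX5-Δ2-6 (mean 6.80 ± 0.10, SD, n = 6). PAX5-WT had a mean of 6.66 ± 0.07, PAX5-G183S 6.67 ± 0.14 and PAX5-G183V 6.68 ± 0.17 (SD, n = 7 each). In both probe sets all 6 PAX5-P80R arrays lay above all PAX5-WT and all PAX5-G183V arrays, and non-overlap held for 1.33% of all probe sets between PAX5-G183V and PAX5-P80R. Both probe sets measure the same RNA samples and are not independent.

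**Figure D5:**
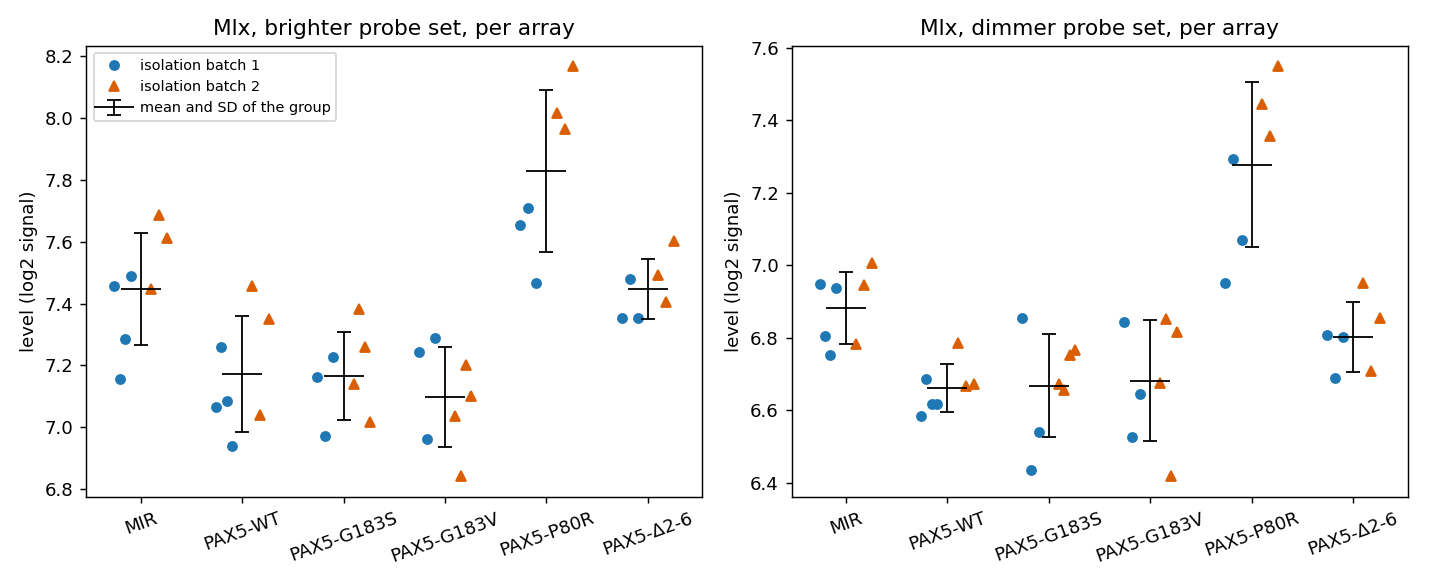
Log2 signal of the brighter (left) and dimmer (right) Mlx probe set on each array (vertical axes) by construct (horizontal axes); circles are isolation batch 1, triangles isolation batch 2, and the bars give the group mean and SD. The PAX5-P80R means, 7.83 and 7.28, are the highest in both panels.

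Mlx rose with PAX5-P80R against PAX5-WT by 0.63 ± 0.10 (SE; limma adjusted p = 3.1e-05) on the brighter and 0.62 ± 0.08 (adjusted p = 1.5e-06) on the dimmer probe set. Within isolation batches 1 and 2 these differences were 0.50 and 0.73, and 0.50 and 0.74. Within one run of transductions, it was higher with PAX5-P80R than with PAX5-Δ2-6, by 0.38 ± 0.09 (adjusted p = 0.0160) and 0.48 ± 0.08 (adjusted p = 0.000129). PAX5-G183V against PAX5-P80R gave -0.73 ± 0.10 (adjusted p = 3.7e-06) and -0.62 ± 0.08 (adjusted p = 2.7e-06). Both comparisons were larger in isolation batch 2: with batch 1 or 2 alone PAX5-P80R against PAX5-Δ2-6 gave 0.21 and 0.55 on the brighter and 0.34 and 0.61 on the dimmer probe set, and PAX5-G183V against PAX5-P80R gave -0.41 and -0.98, and -0.46 and -0.76. None of these was called with batch 1 alone, and all were called with batch 2 alone. The call on the brighter probe set against PAX5-Δ2-6 was lost without PAX5-P80R replicate 4 or 6 or PAX5-Δ2-6 replicate 5, with an adjusted p of up to 0.0770. That on the dimmer one held with each of the 40 arrays left out.

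Against MIR, Mlx was higher with PAX5-P80R by 0.35 ± 0.10 (SE; limma adjusted p = 0.0328) and 0.40 ± 0.08 (adjusted p = 0.00195), by 0.24 and 0.43, and 0.26 and 0.55, in isolation batches 1 and 2. The brighter probe set lost its call without any one of MIR replicates 2, 3, 5 or 7 or PAX5-P80R replicates 4, 5 or 6 (adjusted p up to 0.111), and both lost theirs on plate 2 alone, at 0.34 and 0.35. It was lower on the brighter probe set with PAX5-G183S, -0.30 ± 0.09 (adjusted p = 0.0333; -0.22 and -0.39 in isolation batches 1 and 2), and with PAX5-G183V, -0.37 ± 0.09 (adjusted p = 0.00456; -0.17 and -0.55). The PAX5-G183V call was lost with isolation batch 1 alone (adjusted p = 0.628) and on plate 2 alone (-0.33, adjusted p = 0.372). The dimmer probe set gave -0.23 ± 0.07 (adjusted p = 0.0630) and -0.22 ± 0.07 (adjusted p = 0.0659). For PAX5-WT the 2 values were -0.28 ± 0.08 (adjusted p = 0.0578) and -0.22 ± 0.07 (adjusted p = 0.0758), and for PAX5-Δ2-6 -0.03 and -0.08. Set against PAX5-WT directly, neither octapeptide construct was called on either Mlx probe set, with differences of -0.10 to 0.01. The PAX5-G183S call was lost without any one of MIR replicates 1, 4, 6 or 7 or PAX5-G183S replicates 2, 4 or 7 (adjusted p up to 0.0984). PAX5-G183V was also below PAX5-Δ2-6 on the brighter probe set, at -0.34 ± 0.10 (adjusted p = 0.0343), a call lost without any one of PAX5-G183V replicates 4, 5, 6 or 7 or PAX5-Δ2-6 replicates 1, 2, 4 or 6 (adjusted p up to 0.0907); the dimmer one gave -0.14 ± 0.08 (adjusted p = 0.43).

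Known direct targets of MondoA with MLX, Txnip and Arrdc4, were listed beside it. Txnip, which encodes an inhibitor of glucose uptake, fell in PAX5-P80R and in PAX5-WT. Its MIR arrays ranged from 9.33 to 9.51, with a median of 9.40, the PAX5-P80R arrays from 8.55 to 9.29, with a median of 8.85, and the PAX5-WT arrays from 8.87 to 9.29, with a median of 8.95. No PAX5-P80R or PAX5-WT array reached the MIR range. The Txnip difference from MIR was -0.59 ± 0.12 (SE; limma adjusted p = 0.00354) for PAX5-P80R, with -0.30 and -0.94 in isolation batches 1 and 2, and -0.38 ± 0.11 (adjusted p = 0.0404) for PAX5-WT, with -0.29 and -0.51. It was -0.13 for PAX5-G183S, -0.32 for PAX5-G183V and -0.17 for PAX5-Δ2-6, none of them called. In isolation batches 1 and 2 these were -0.21 and -0.14, -0.08 and -0.57, and 0.03 and -0.41. By its group means Txnip was thus lowest in the group with the highest Mlx, and also low in PAX5-WT, where Mlx was not called. Within one run of transductions, neither target was called for PAX5-P80R against PAX5-Δ2-6. Arrdc4, the other target, was dim at 4.48 in MIR and was not called.

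Among the MXD repressors only an Mxd1 probe set was called in the 12 comparisons, but calls for Mxd3 and Mxd4 depended on the batch terms. Mxd1, which is induced as cells leave the cycle, had a brighter probe set at 5.73 ± 0.18 (SD, n = 7) in MIR, 5.92 ± 0.16 (SD, n = 6) in PAX5-P80R and 5.55 ± 0.22 (SD, n = 7) in PAX5-G183V. PAX5-G183V was below PAX5-P80R, at -0.44 ± 0.11 (SE; limma adjusted p = 0.0235), with -0.48 and -0.38 in isolation batch 1 or 2 alone, neither of them called. That call was lost without PAX5-P80R replicate 2 or PAX5-G183V replicate 7, with an adjusted p of up to 0.115. A second Mxd1 probe set gave -0.31 ± 0.10 (adjusted p = 0.0776) for the same comparison. The third Mxd1 probe set was below the array median on 18 of 40 arrays.

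Mxd3, the family member found in dividing cells, had 3 probe sets, with means of 6.96, 6.23 and 5.39. With the isolation batch term none was called between constructs. With 3 transduction series in its place, the second was called lower against MIR. The differences were -0.47 for PAX5-P80R (limma adjusted p = 0.0150) and -0.36 for PAX5-G183V (adjusted p = 0.0342). The brightest Mxd3 probe set was lower in isolation batch 2 than in batch 1, at -0.20 ± 0.05 (SE, limma adjusted p = 0.00169). Mxd4, another MAX-binding repressor, had means of 7.04, 5.70, 5.26 and 4.00 and no call in the 12 comparisons with the isolation batch term. Its brightest probe set behaved differently in the isolation batches. In batch 1 the group means of Mxd4 lay between 6.85 in MIR and 7.27 in PAX5-G183S. In batch 2 MIR averaged 7.27, PAX5-WT 7.41 and PAX5-G183S 7.32, while PAX5-G183V averaged 6.93, PAX5-P80R 6.74 and PAX5-Δ2-6 6.68. The lower groups share a run of transductions to which the higher ones do not belong, apart from PAX5-G183S replicate 4, at 6.82. The batch-by-construct term for PAX5-P80R was -0.73 ± 0.22 (adjusted p = 0.186), and that for PAX5-Δ2-6 was also -0.73 ± 0.22 (adjusted p = 0.265). For PAX5-G183V it was -0.57 ± 0.21 (limma adjusted p = 0.285). With batch 2 alone, PAX5-Δ2-6 differed from PAX5-WT by -0.91 (limma adjusted p = 0.00581) and PAX5-P80R by -0.84 (adjusted p = 0.0103). Against MIR, PAX5-P80R gave -0.70 there (adjusted p = 0.0368). With 3 transduction series, PAX5-Δ2-6 differed from PAX5-WT by -0.70 (limma adjusted p = 0.000897) and PAX5-P80R by -0.63 (adjusted p = 0.00246). From MIR they differed by -0.54 (adjusted p = 0.0301) and -0.48 (adjusted p = 0.0288). All of these differences cross runs of transductions.

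Mxi1 encodes a MAX partner that opposes MYC. Its brighter probe set ranged from 9.71 to 9.96 in MIR (median 9.84, mean 9.82 ± 0.08, SD, n = 7) and from 9.85 to 10.15 in PAX5-G183S (median 10.03, mean 9.99 ± 0.11, SD, n = 7). It was 0.15 ± 0.04 (SE) higher with PAX5-G183S than with MIR (limma adjusted p = 0.0406), by 0.14 and 0.17 in the 2 isolation batches. The ranges overlap, and the call was lost without any one of MIR replicates 1, 3, 5, 6 or 7 or PAX5-G183S replicates 1, 6 or 7 (adjusted p up to 0.130). The other Mxi1 probe set was highest with PAX5-G183V, at 7.61 ± 0.11 (SD, n = 7) against 7.36 ± 0.17 in MIR, a difference of 0.24 ± 0.08 (adjusted p = 0.0503).

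Mnt encodes a MAX partner present in both resting and growing cells. Its brighter probe set ranged from 9.06 to 9.21 in PAX5-Δ2-6 (median 9.13, mean 9.13 ± 0.05, SD, n = 6) and from 9.15 to 9.51 in PAX5-WT (median 9.39, mean 9.34 ± 0.12, SD, n = 7). It was lower with PAX5-Δ2-6 than with PAX5-WT, at -0.28 ± 0.07 (SE; limma adjusted p = 0.00713), with -0.21 and -0.36 in isolation batch 1 or 2 alone, neither of them called. MIR lay between them at 9.17 ± 0.12 (SD, n = 7), and neither construct was called against MIR. The other Mnt probe set was below the array median on 38 of 40 arrays.

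The E-box letters CACGTG, which read the same on both strands, were searched in the 250 bases before the start of 9 members, those with an entry in the RefSeq promoter table (11 windows on GRCm38.p6). Mxd4, Mnt and Mlx held a copy, 219, 123 and 40 bases before the start, as shown with the letters in capitals because these are the letters that the network's own dimers prefer:
Mxd4: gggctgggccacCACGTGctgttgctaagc
Mnt: ccccacccaagcCACGTGtgcgcgcgcggt
Mlx: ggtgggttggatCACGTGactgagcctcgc
The Mxd4 stretch is chr5:34187912-34187941 on the minus strand, the Mnt stretch chr11:74830789-74830818 and the Mlx stretch chr11:101087238-101087267, both on the plus strand. The Mlx stretch lies inside the annotated gene, upstream of one of its starts. The Mnt stretch runs past the first base of its annotated gene, chr11:74830806. Of all 32851 windows, 6.02% hold the letters, and of 27025 genes 6.86% have a window that does.

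RNA signals of genes whose proteins work with the network were examined next. Genes are given by their brightest probe set; of 17097 genes, 5.19% were called for PAX5-WT, 5.01% for PAX5-G183S, 7.66% for PAX5-G183V, 3.63% for PAX5-P80R and 0% for PAX5-Δ2-6 against MIR. None of the 3 other MAX and MLX partners (Mga, Mlxip and Mlxipl) and none of 8 measured co-repressor genes of 10 listed was called against MIR for any construct. Mlxip, which encodes MondoA, differed by -0.10 ± 0.10 (SE) with PAX5-P80R. Of 7 measured activation partners of MYC of 10 listed, Ruvbl2, which encodes a helicase of chromatin remodelling complexes, rose with PAX5-G183S (0.24 ± 0.06, SE; limma adjusted p = 0.00546) and PAX5-G183V (0.24 ± 0.06, adjusted p = 0.00525). Its partner helicase Ruvbl1 rose with PAX5-P80R (0.20 ± 0.05, adjusted p = 0.00944; 0.09 and 0.32 in isolation batches 1 and 2) and PAX5-G183V (0.19 ± 0.04, adjusted p = 0.00331). None fell.

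Of 11 measured genes of MYC protein stability of 12 listed, 2 fell with PAX5-WT and none was called with the other 4 constructs against MIR. Aurka, which encodes Aurora kinase A, known to shield MYCN protein from degradation, differed by -0.20 ± 0.05 (SE; limma adjusted p = 0.00871), with -0.27 and -0.10 in isolation batches 1 and 2. Stub1, which encodes a ubiquitin ligase, differed by -0.20 ± 0.06 (adjusted p = 0.0367). Against PAX5-WT, 1 of the 11 was higher with PAX5-P80R and 3 with PAX5-Δ2-6, and none was lower. Aurka was higher with PAX5-P80R (0.22 ± 0.05, adjusted p = 0.0109; 5.16% of genes called) and PAX5-Δ2-6 (0.21 ± 0.05, adjusted p = 0.0107; 5.8% called), and Stub1 (0.23 ± 0.06, adjusted p = 0.0282) and Fbxw7, another ubiquitin ligase gene (0.22 ± 0.06, adjusted p = 0.0276), were higher with PAX5-Δ2-6.

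Textbook MYC targets were listed as well. Of 19 measured of 20 genes raised by MYC, none was called lower against MIR with any of the 5 constructs. For the constructs with lower Mycn, 3.63% to 7.66% of all genes were called against MIR in either direction. An absence of lower calls among 19 genes is close to those shares, so nothing is read from it. With PAX5-G183V, where the Mycn difference was -1.48, 3 were higher. These were Pa2g4, a growth regulator (0.27 ± 0.08, SE; limma adjusted p = 0.0388), the cyclin gene Ccnd2 (0.25 ± 0.06, adjusted p = 0.00715) and the polyamine enzyme gene Odc1 (0.24 ± 0.07, adjusted p = 0.0435). All 3 differences were larger in isolation batch 2 than in batch 1, at 0.42 against 0.10 for Pa2g4, 0.38 against 0.10 for Ccnd2 and 0.38 against 0.07 for Odc1. With PAX5-Δ2-6, where Mycn was not lower, the isolation batch 2 differences from MIR were 0.30, 0.25 and 0.10. Within one run of transductions, PAX5-G183V against PAX5-Δ2-6 had none of the 19 called and a list median of 0.01. The Mycn difference there was -1.61. The list's median difference from MIR was 0.03 for PAX5-WT, 0.01 for PAX5-G183S, 0.10 for PAX5-G183V, 0.11 for PAX5-P80R and 0.07 for PAX5-Δ2-6, beside medians over all genes of 0.00 to 0.01. None of the 6 genes lowered by MYC was called. Cdkn1a, the cell cycle inhibitor among them, differed by 0.34 ± 0.10 (adjusted p = 0.0650) with PAX5-P80R and 0.28 ± 0.09 (adjusted p = 0.0636) with PAX5-G183V.

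The genes whose levels ran most like Mycn over the 40 arrays, after removal of the plate and isolation batch terms and among 17096 genes by brightest probe set, were Asb9 (Pearson r = 0.943), Itga4 (0.910), Txndc15 (0.893), Rgs3 (0.884) and Ly6c1 (0.873). Asb9, which encodes a SOCS box protein, averaged 8.77 in MIR, 8.79 in PAX5-Δ2-6, 6.79 in PAX5-P80R, 5.35 in PAX5-G183V, 5.28 in PAX5-G183S and 5.25 in PAX5-WT. Itga4, the integrin alpha 4 gene, averaged 7.49 in MIR, 7.84 in PAX5-Δ2-6, 7.19 in PAX5-P80R, 6.77 in PAX5-G183V, 6.47 in PAX5-WT and 6.19 in PAX5-G183S. This is the order of Mycn in full, which Txndc15 and Ly6c1 also followed. Without removal of the batch terms Txndc15 had r = 0.678 and ranked 90.

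Running most opposite to Mycn were Lair1 (r = -0.930), Cdc25b (-0.923), Ptpn22 (-0.917), Ptgr1 (-0.911) and Mgarp (-0.905). Lair1, which encodes an inhibitory receptor of leukocytes, averaged 4.67 in MIR and 6.42 in PAX5-G183S. Cdc25b, a phosphatase gene of the cell cycle, averaged 7.93 in MIR and 9.04 in PAX5-WT. These correlations describe arrays that share 6 groups of one cell line, so they largely repeat the differences between constructs. Without removing the batch terms, 4 of the 5 highest and 4 of the 5 lowest genes were shared, and by Spearman's rho 3 and 2.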

How the data were processed

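Total RNA of 40 arrays was labelled with an Affymetrix 3' IVT kit, per the labels' protocols. The deposited values are log2 signals, and the submitters' processing notes name RMA. Its software and version are not given in the sources. The values were taken unchanged, and RMA's quantile step can hide a change shared by most genes. Control probe sets (104 of 45141) were left out. Of the rest, 28898 name 1 gene, 551 several and 15588 none, and the probe set with the highest mean stood for a gene.

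R 4.3.3 with limma 3.58.1 fitted all 40 arrays with terms for group, plate and isolation batch, with Benjamini-Hochberg adjustment across 45037 probe sets for each of 12 comparisons. The median SE was 0.08. Isolation batch by construct terms came from a second fit.

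The members and lists were chosen with earlier results of these data known. Named were all members, the 5 genes most and 5 least like Mycn, and up to 4 genes per list called against MIR, with the largest change. Single genes beside these (Ddx1, Mlxip, Arrdc4, Fbxw7, Cdkn1a, Xbp1 and the other markers) were named after their values were seen. Alternatives concerned batch terms, single batches and plates, transduction series, a replicate block, the groups fitted, probe sets, normalization, a filter, eBayes settings and each array left out. The fit was tested on simulated data. Promoter windows are from RefSeq on GRCm38.p6.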

Additional observations from a re-analysis of the deposited data

Results flagged for a closer look

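Mycn differed from MIR unequally in the 2 isolation batches with PAX5-P80R: the batch-by-construct term was 0.65 on the log2 scale (limma adjusted p = 0.0225), and transduction numbers change with the batches.

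In 6 of 138 groups of arrays tested, 1 array stood apart from the others by Dixon's criterion, which chance meets in about 1 of 20 groups. Of these, 3 were dim or modest signals: a Mycl probe set on MIR replicate 6 (3.52, next array 3.38), an Mxd4 probe set on MIR replicate 3 (3.69, next 3.98) and an Mxd1 probe set on PAX5-WT replicate 7 (5.96, next 5.69). PAX5-G183S replicate 7 stood apart for 2 probe sets, low for an Mxi1 probe set (7.12, next 7.46) and high for the brighter Mnt probe set (9.69, next 9.36). PAX5-G183S replicate 4, with transduction 45, was low for the brightest Mxd3 probe set (6.83, next 7.00).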

How the results depend on the processing

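Mycn differences kept their direction under all 12 settings, except that of PAX5-Δ2-6 against MIR, which was -0.0069 with the replicate block, and 129 of 144 values moved by less than 1 residual SD of the fit. With isolation batch 1 alone they were -1.36 for PAX5-P80R against MIR and, against PAX5-WT, 0.024 for PAX5-G183V, 0.41 for PAX5-P80R and 1.78 for PAX5-Δ2-6. With isolation batch 2 alone they were -2.33 for PAX5-WT and -0.64 for PAX5-P80R against MIR, and 1.08, 1.69 and 2.63 for those 3 constructs against PAX5-WT. With 3 transduction series, of which the last joins both runs, they were -1.09, -0.59 and 0.56 for PAX5-G183V, PAX5-P80R and PAX5-Δ2-6 against MIR. Against PAX5-WT they were 0.92, 1.42 and 2.57. No array left out moved one by that much (PAX5-WT against MIR, -2.09 to -1.93).

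Counts of called probe sets of the other members were less stable (103 of 144 values within 1.5 times). Without batch terms they were 0 for PAX5-G183S against MIR, 0 for PAX5-Δ2-6 against PAX5-WT and 2 for PAX5-G183V against PAX5-Δ2-6. With isolation batch 1 alone 0 was left in 7 comparisons (PAX5-G183S, PAX5-G183V and PAX5-P80R against MIR, PAX5-Δ2-6 against PAX5-WT and the 3 within a run); with batch 2 alone 0 in PAX5-G183S against MIR and PAX5-G183V against PAX5-Δ2-6; and with plate 2 alone 0 in PAX5-G183S, PAX5-G183V and PAX5-P80R against MIR and PAX5-G183V against PAX5-Δ2-6. With 3 series they were 2 and 1 for PAX5-G183V and PAX5-Δ2-6 against MIR, and 2, 5 and 4 for PAX5-G183V, PAX5-P80R and PAX5-Δ2-6 against PAX5-WT; Mxd4 probe sets were among those gained. With only the 2 groups compared they were 1, 1 and 0 for PAX5-WT, PAX5-G183S and PAX5-P80R against MIR, and 0 and 1 for PAX5-G183V against PAX5-Δ2-6 and PAX5-P80R. One probe set per gene gave 2 for PAX5-WT against MIR and 1 for PAX5-P80R against PAX5-Δ2-6; quantile normalization again 1 and 2, the filter on dim probe sets 3 and 3, and trend and robust settings 2 and 2 for PAX5-WT and PAX5-G183V against MIR. The filter also gave 4 and 2 for PAX5-P80R and PAX5-Δ2-6 against PAX5-WT, and trend and robust settings 2 for the latter. Centring on medians changed none. Arrays left out in turn gave 0 to 1 for PAX5-WT, 0 to 4 for PAX5-G183S, 1 to 2 for PAX5-G183V and 1 to 3 for PAX5-P80R against MIR, 1 to 2 for PAX5-Δ2-6 against PAX5-WT, 1 to 3 for PAX5-P80R and 0 to 1 for PAX5-G183V against PAX5-Δ2-6, and 2 to 4 for PAX5-G183V against PAX5-P80R. Apart from fewer arrays or probe sets, the cause was not tested. The 15 single calls gave 176 values over 12 settings, with 128 on the same side of the threshold, 48 not called and 0 reversed.

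Replicate numbers did not pair the arrays (median correlation between -0.11 and 0.12 per number, and 0.01 between different numbers). With the replicate block the counts were 1 for PAX5-P80R against MIR, 1 against PAX5-WT, 0 for PAX5-Δ2-6 against PAX5-WT and 0 for PAX5-G183V against PAX5-Δ2-6, the Mlx rise of PAX5-P80R against PAX5-WT on the brighter probe set was 0.54 (adjusted p = 0.0584), and 8 of 15 single calls held.

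The batch-by-construct term of Mycn was varied in ways chosen after seeing the data. For PAX5-P80R it was 0.63 without a plate term (adjusted p = 0.0729), 0.74 on plate 2 alone (0.230) and 0.65 with the replicate block (0.0865), none called. For PAX5-G183V it was 0.49 and called with the filter on dim probe sets (0.0446). Left-out arrays gave -0.66 to -0.49 for PAX5-WT, 0.46 to 0.54 for PAX5-G183V and 0.61 to 0.69 for PAX5-P80R.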
